A study of Drosophila melanogaster with 6 samples.

Results

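The genes described here are 8 zygotic targets of BMP signalling in the dorsal ectoderm and amnioserosa of the fruit fly embryo: pnr, ush, tup, Ance, peb, srp, egr and C15. They were chosen by name as genes expressed under BMP on the dorsal side, without the BMP pathway itself and without the zen and Doc genes. This rule used no measured value, but earlier results of these data were known when the members were chosen. They were 8 of the 11982 genes named by a probe set, and the platform annotation gave them 10 of the 18769 probe sets tested, with 2 each for egr and C15 and 1 for each other gene. All 8 genes were measured, and none was removed by a filter on low signals.

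Total RNA of Drosophila melanogaster embryos aged 1 to 2 h was hybridized to Affymetrix Drosophila Genome 2 arrays, 1 array per sample. A first group of 3 samples, called zld clone here, came from mothers with zld germ-line clones. In such mothers the egg-producing cells are mutant for zld, so the supply of normal zld product to the egg is lost or reduced. The allele and the genotype contributed by the father are not given in the labels. The control group of 3 samples came from the yw stock, labelled wild type, which carries the body colour mutation yellow and the eye colour mutation white. Embryos of both groups were pooled whole, and by the series text 90% of a stained portion were in nuclear cycles 8 to 13, before the blastoderm forms cells. The comparison asked which transcripts depend on Zelda, a maternally supplied zinc finger factor, at the start of zygotic transcription.

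Along the dorsal midline of the early embryo, BMP ligands encoded by dpp and scw reach their highest activity. The extracellular proteins Sog and Tsg carry the ligands there and the protease Tld releases them, and phosphorylated Smad proteins then act in the nucleus. Peak signalling specifies the amnioserosa, an extra-embryonic membrane, partly through the homeobox factor Zen, and lower levels specify the dorsal ectoderm. These fates are read out late in the blastoderm.

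Signals are given on the linear scale of the deposited values, as mean ± SD over the 3 arrays of a group. On the 6 arrays 47.8% to 56.1% of probe sets exceeded 18.1, the 95th percentile of control probe sets for Bacillus genes that a fly does not have, and signals under about this level could not be told from background. The targeted gene zld had signals of 263, 196 and 215 on zld clone replicates 1, 2 and 3 and 1023, 1062 and 967 on yw replicates 1, 2 and 3. Its groups did not overlap (log2 fold change -2.11, SE 0.114, adjusted p = 1.92e-04, limma). Fold changes are zld clone over yw on the log2(signal + 16) scale, which understates the change of dim transcripts, and a gene was called at an adjusted p under 0.05 over all probe sets tested. Without yw replicates 1 and 2, the arrays with higher muscle gene signals described further on, the log2 fold changes of the members are given beside their values where they moved by over 1.5 times. In that fit the yw group is a single array, and its spread is assumed to equal that of the zld clone arrays.

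None of the 8 genes was called in either direction. Ance, a peptidase gene of the amnioserosa, and pnr, a GATA factor gene of the dorsal ectoderm, had the lowest zld clone signals relative to yw, and egr, a TNF ligand gene, and C15, a homeobox gene, also lay lower on every zld clone array than on any yw array. For peb and srp the groups overlapped with a lower zld clone mean, and for ush and tup they overlapped with a higher one. Over all probe sets 0.778% were called lower and 0.863% higher, a background at which 0 calls among 8 genes is no result about them (limma, Benjamini-Hochberg adjustment). Before adjustment, at an unadjusted p under 0.05, 3 of the 8 were lower (Ance, pnr and egr) and 0 higher, beside 8.67% and 6.69% of all probe sets. With the methods' t-test, 0 of the 8 passed after adjustment, as did 0.00% of all probe sets in the lower and 0.0107% in the higher direction. Before adjustment it put Ance and egr, 2 of the 8, lower and 0 higher, beside 7.91% and 5.36% of all probe sets. All 3 zld clone arrays lay below all 3 yw arrays for 4 of the 8 genes and for 13.6% of all probe sets, and all above for 0 of the 8 and for 8.11%. Of those 4, pnr and C15 each had 0 zld clone arrays and 1 yw array over background. Their separation therefore lay mostly within background. The log2 fold change was below 0 for 6 of the 8 genes and for 61.9% of all probe sets, and its median was -0.42 over the 8 genes and -0.05 over all probe sets. In whole-embryo RNA, fewer cells expressing a gene and less RNA per cell cannot be told apart.

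**Figure D1:**
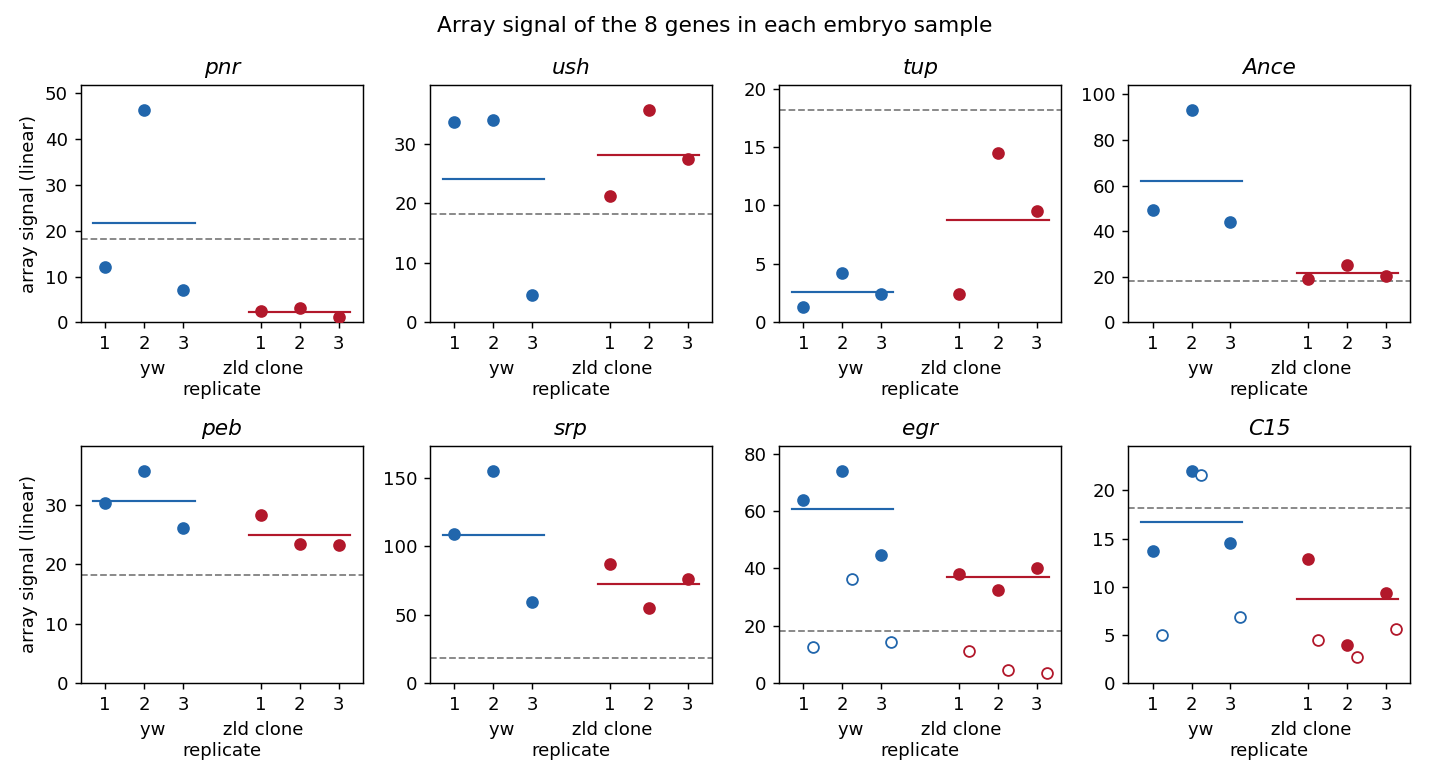
Array signal on a linear scale for each of the 8 genes on the 3 yw arrays (blue) and the 3 zld germ-line clone arrays (red), with group means as lines; open symbols are the dimmer second probe sets of egr and C15, and the dashed line is the background level of 18.1. Ance stands clear of background in yw, pnr does so on yw replicate 2 alone, and tup lies under the line on every array.

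Ance encodes an angiotensin converting enzyme relative, was first known in the embryo as Race, and is a direct target of Smads and Zen in the presumptive amnioserosa. Its signals were 19.2, 25.1 and 20.4 on zld clone replicates 1, 2 and 3 and 49.1, 93.0 and 44.1 on yw replicates 1, 2 and 3. The zld clone arrays sat just above background and the yw arrays well above it, with a gap between the groups. The means were 21.6 ± 3.12 and 62.1 ± 26.9 (SD, n = 3 each). Between the groups the log2 fold change was -1.01 (SE 0.257, 95% interval -1.60 to -0.41, adjusted p = 0.112, limma), a 2.01-fold difference on this scale that did not pass the threshold. Ance passed under 1 of the 17 alternative settings that could be run for it, that in which probe sets below the median mean signal were left out before the fit (adjusted p = 0.0394, log2 fold change -1.01), where 2.81% of the 9386 remaining probe sets were called lower. The single Ance probe set carries the suffix _s_at, which marks probes shared by several transcripts. Among the other 5 converting enzyme relatives 0 were called (limma). Before adjustment 0 passed as lower and 1 as higher, beside 8.67% and 6.69% of all probe sets. The largest difference was that of Ance-3 (log2 fold change 0.42, adjusted p = 0.162, limma), whose signals were within background in both groups. Ance-2, the gene next to Ance in the RefSeq Release 6 order, was within background, with group means of 5.70 ± 3.08 for the zld clone and 7.77 ± 4.83 for the yw arrays (SD, n = 3 each). The median log2 fold change of these relatives was -0.12.

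The GATA factor gene pnr (pannier) patterns the dorsal ectoderm and later the dorsal epidermis and heart. It had signals of 2.5, 3.1 and 1.2 on zld clone replicates 1, 2 and 3 and 12.0, 46.3 and 7.1 on yw replicates 1, 2 and 3. Only yw replicate 2 exceeded background, and every zld clone value was at the level of a control probe set. The means were 2.27 ± 0.971 and 21.8 ± 21.4 (SD, n = 3 each), and the log2 fold change was -0.91 (SE 0.327, adjusted p = 0.238, limma). This value depended on the pseudocount, being -2.43 with a pseudocount of 1 (adjusted p = 0.0944) and -0.34 with 64. It also depended on yw replicate 2, since the log2 fold change was -0.48 without that array and -0.34 without yw replicates 1 and 2.

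A second GATA factor gene, srp (serpent), is expressed in the amnioserosa and also in blood cell, fat body and endoderm precursors. All its arrays were over background, with signals of 86.8, 54.9 and 75.8 on zld clone replicates 1, 2 and 3 and 109.2, 154.9 and 59.6 on yw replicates 1, 2 and 3. Replicate 3 of yw lay inside the zld clone range and the other yw arrays above it. This gave a log2 fold change of -0.42 (SE 0.290, 95% interval -1.09 to 0.24, adjusted p = 0.527, limma). Its sign turned to 0.21 without yw replicates 1 and 2, and with 1 array left out it was -0.15 without yw replicate 2, -0.27 without zld clone replicate 2 and -0.74 without yw replicate 3. In the RefSeq Release 6 order a single coding gene, GATAe, a GATA factor of the endoderm, lies between pnr and srp. GATAe was within background throughout, at 8.3, 3.4 and 3.3 on the zld clone arrays and 4.6, 14.0 and 7.6 on the yw arrays. Of the 3 other GATA factor genes 0 were called, and 0 also before adjustment (limma), with grn furthest from 0 at a log2 fold change of -0.51 (adjusted p = 0.463) and a list median of -0.23.

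The gene ush (u-shaped) encodes a zinc finger protein of the FOG family that binds GATA factors such as Pannier and modifies their activity. Its signals were 21.3, 35.6 and 27.5 on zld clone replicates 1, 2 and 3 and 33.7, 34.0 and 4.6 on yw replicates 1, 2 and 3. Replicate 3 of yw alone lay under background, and the remaining yw arrays lay inside the zld clone range. For ush the log2 fold change was 0.24 (SE 0.357, 95% interval -0.58 to 1.06, adjusted p = 0.785, limma). Replicate 3 of yw set its sign, as the value was -0.19 without that array, 0.45 without replicate 2 or replicate 1, and 1.09 when it was the sole yw array.

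The homeobox genes tup and C15 lay at or under background on most arrays. Tailup (tup), a LIM homeobox factor of the Islet family needed in the amnioserosa for germ band retraction, had 2.4, 14.5 and 9.5 on the zld clone arrays and 1.3, 4.2 and 2.4 on the yw arrays. Every tup value was under background, so no level can be given in either group, and the log2 fold change of 0.38 (adjusted p = 0.340, limma) describes background signals, moving from 0.22 without zld clone replicate 2 to 0.58 without zld clone replicate 1. C15, a relative of vertebrate Hox11 expressed in the amnioserosa, had 12.9, 4.0 and 9.4 on zld clone replicates 1, 2 and 3 and 13.7, 22.0 and 14.5 on yw replicates 1, 2 and 3 with its brighter probe set. Only yw replicate 2 passed background, and the gap between the groups was narrow, from 12.9 to 13.7. The log2 fold changes of its probe sets were -0.41 (adjusted p = 0.344) and -0.38 (adjusted p = 0.435, limma), and the dimmer one had overlapping groups with 21.6 on yw replicate 2 as its sole value over background. Without zld clone replicate 2 the brighter one was at -0.26. Their relatives were near background as well. Of 4 other LIM homeobox genes 0 were called, and 0 also before adjustment (limma), with a list median of -0.05 and Lim1 at 0.39 (adjusted p = 0.390). Of 4 other NK homeobox genes from the cluster of C15 the same counts held, with a list median of -0.14 and bap at -0.29 (adjusted p = 0.521).

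The zinc finger gene peb, known in the embryo as hindsight, is a late marker of the amnioserosa that acts in germ band retraction. It had the smallest log2 fold change of the 8, from signals of 28.3, 23.4 and 23.3 on zld clone replicates 1, 2 and 3 and 30.4, 35.7 and 26.1 on yw replicates 1, 2 and 3. All values were over background and the groups overlapped. A log2 fold change of -0.19 resulted (SE 0.187, 95% interval -0.62 to 0.24, adjusted p = 0.666, limma), and this unadjusted interval holds 0 and does not reach a 2-fold difference on this scale. It was -0.11 without yw replicate 2, -0.04 without yw replicates 1 and 2, and -0.03 with each array centred on its median.

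The gene egr (eiger) encodes the fly ligand of the TNF family, which signals through the receptors Wengen and Grindelwald to the JNK pathway, and is transcribed in the amnioserosa. Its brighter probe set read 38.1, 32.4 and 40.1 on zld clone replicates 1, 2 and 3 and 63.9, 73.9 and 44.6 on yw replicates 1, 2 and 3. The groups were separate, though yw replicate 3 stood close to the zld clone arrays. Its log2 fold change was -0.52 (SE 0.201, adjusted p = 0.267, limma). The dimmer probe set gave -0.68 (adjusted p = 0.260) with 36.3 on yw replicate 2 as its sole value over background, and the direction was shared by both. Without yw replicates 1 and 2 the brighter one was at -0.20. Of 11 other genes of the TNF and JNK pathway 0 were called (limma). Before adjustment 2 passed as lower and 2 as higher, beside 8.67% and 6.69% of all probe sets. The furthest from 0 was Jra, the fly Jun, at a log2 fold change of 0.77 (adjusted p = 0.114, limma), and the list median was 0.10. Jra was called higher without yw replicate 1 (0.99, adjusted p = 0.0221) and with each array centred on its median (0.92, adjusted p = 0.0468). The receptor genes wgn and grnd, named for their place in the pathway after their values were seen, were at 0.43 and -0.40 (adjusted p = 0.563 and 0.498).

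**Figure D2:**
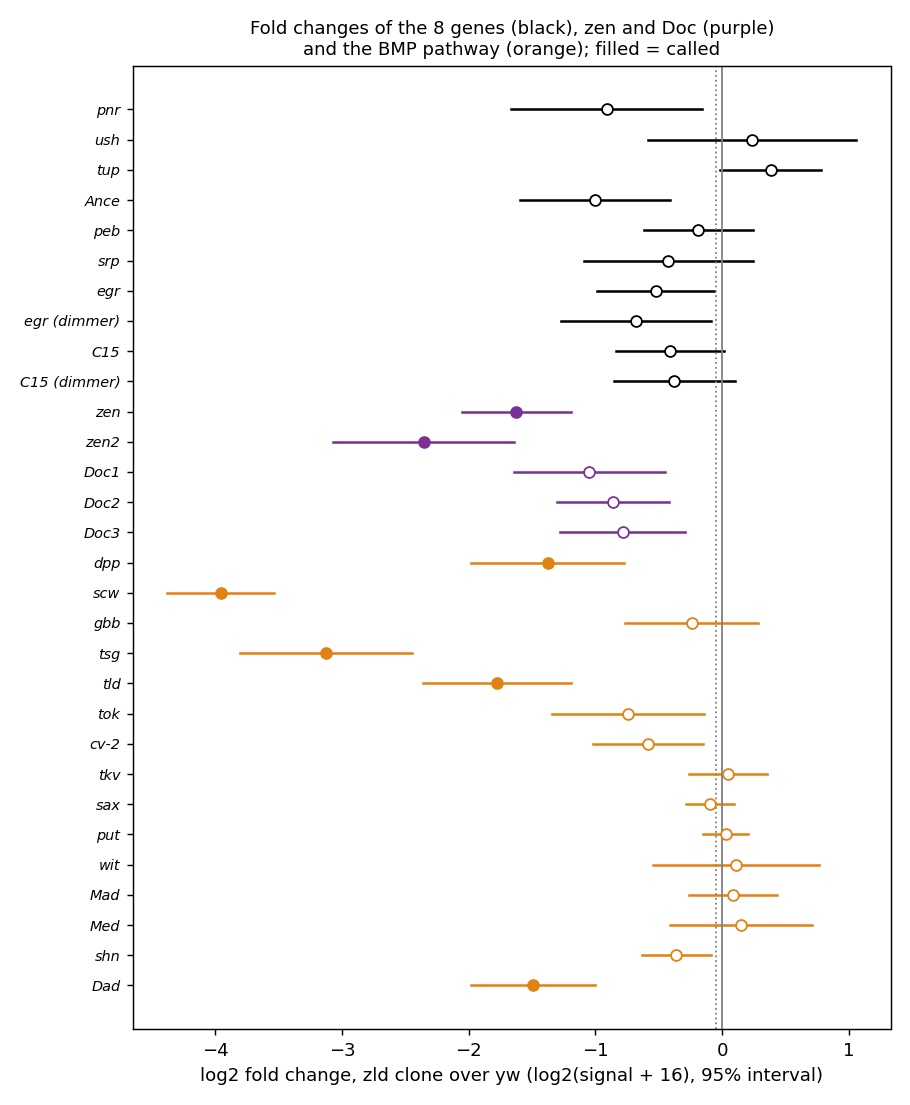
Log2 fold change of zld germ-line clone over yw embryos on the log2(signal + 16) scale, with limma 95% intervals that are not adjusted for multiple tests, for the 10 probe sets of the 8 genes (black), zen and Doc genes (purple) and BMP pathway genes (orange). Filled points were called; the dotted line is the median of all probe sets, -0.05. No black point is filled, while scw, tsg, tld, Dad, dpp, zen and zen2 are.

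Some genes of the BMP pathway and of the zen and Doc list gave called falls. Of 15 measured BMP pathway genes 5 fell and 0 rose, beside 0.778% and 0.863% of all probe sets, with a list median of -0.36. These were the ligand genes scw (log2 fold change -3.96, adjusted p = 1.85e-04, limma) and dpp (-1.38, adjusted p = 0.0483), the regulator genes tsg (-3.13, adjusted p = 0.00224) and tld (-1.78, adjusted p = 0.0152), and Dad, the inhibitory Smad gene (-1.49, adjusted p = 0.0148). Dad is itself switched on by BMP signalling, and dpp and Dad were named after their values were seen, to complete the count. On all 3 zld clone arrays scw, dpp, tsg and tld were under the background level, so their fold changes set yw signals against background and give no zld clone level. Against that level, yw signals were at least 23.6-fold higher for scw, 7.58-fold for tsg, 2.72-fold for tld and 2.62-fold for dpp, from differences of mean log2 signals. Dad alone of the 5 had zld clone signals over background. Its signals were 57.2, 35.0 and 34.6 on zld clone replicates 1, 2 and 3 and 189.3, 132.4 and 122.3 on yw replicates 1, 2 and 3, so that all yw arrays stood apart from the zld clone ones. The furthest uncalled member was tok, a relative of tld, at -0.74 (adjusted p = 0.229), and the receptor genes tkv, sax and put and the Smad genes Mad and Med had log2 fold changes from -0.10 to 0.15 with their brightest probe sets. A second probe set of tkv differed from the first (0.05), with 548, 470 and 466 on zld clone replicates 1, 2 and 3 and 288, 310 and 449 on yw replicates 1, 2 and 3 (log2 fold change 0.51, adjusted p = 0.185, limma), so the probe sets of this receptor gene disagree. Among the zen and Doc genes 2 of 5 fell and 0 rose, with a list median of -1.05. The 2 were zen (-1.63, adjusted p = 0.00625) and zen2 (-2.35, adjusted p = 0.0112), and Doc1, a T-box gene of the amnioserosa, was at -1.05 (adjusted p = 0.101). All 5 had every zld clone array below every yw array, as did 13.6% of all probe sets. Some calls on both lists were lost with fewer zld clone arrays. Without zld clone replicates 1, 2 and 3 in turn, BMP pathway genes called lower were 3, 2 and 2, and zen and Doc genes 2, 2 and 1. Without yw replicates 1, 2 and 3 in turn, these counts were 4, 4 and 5, and 2, 2 and 3. The calls also depended on the test, as the methods' t-test on all 6 arrays called 0 of the 15 and 0 of the 5. Whether the 8 genes moved less than these lists was not tested. All 8 had a mean signal under 100 over the 6 arrays, and of the probe sets under that level 0.454% were called lower.

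Of 7 other measured genes of the dorsal ectoderm and amnioserosa 0 were called (limma), with a list median of -0.19. Before adjustment 1 passed as lower and 0 as higher, beside 8.67% and 6.69% of all probe sets. That gene was net, which encodes a bHLH factor, at 15.1, 18.5 and 9.7 on zld clone replicates 1, 2 and 3 and 56.1, 94.3 and 27.7 on yw replicates 1, 2 and 3 (log2 fold change -1.22, adjusted p = 0.134). It had separate groups, with yw replicate 2 highest, as for Ance. The count rested on yw replicate 3: without that array 2 of the 7 were called lower, net (log2 fold change -1.56, adjusted p = 0.0439, limma) and Kr (-0.76, adjusted p = 0.0404), where 1.13% of all probe sets were called lower. With dim probe sets left out, net alone of the 5 remaining genes was called (adjusted p = 0.0461).

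Among the yw arrays, replicate 2 carried the highest signal of all 6 arrays for 6 of the 8 genes, where 25.6% of all probe sets had it highest. The yw replicates 1, 2 and 3 exceeded every zld clone array for 6, 6 and 4 of the 8 genes, and for 35.9%, 41.3% and 35.1% of all probe sets. Relative to the mean of the zld clone arrays, the median log2(signal + 16) of the 8 genes stood at 0.40, 0.70 and 0.12 on yw replicates 1, 2 and 3. For the zen and Doc genes the same values were 1.13, 1.48 and 0.74, so that their replicate 3 remained well above the zld clone arrays. For 6 muscle markers, genes of contractile fibres that form long after the ages collected, they were 1.15, 1.84 and 0.08, and the list median of the log2 fold change was -0.98.

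**Figure D3:**
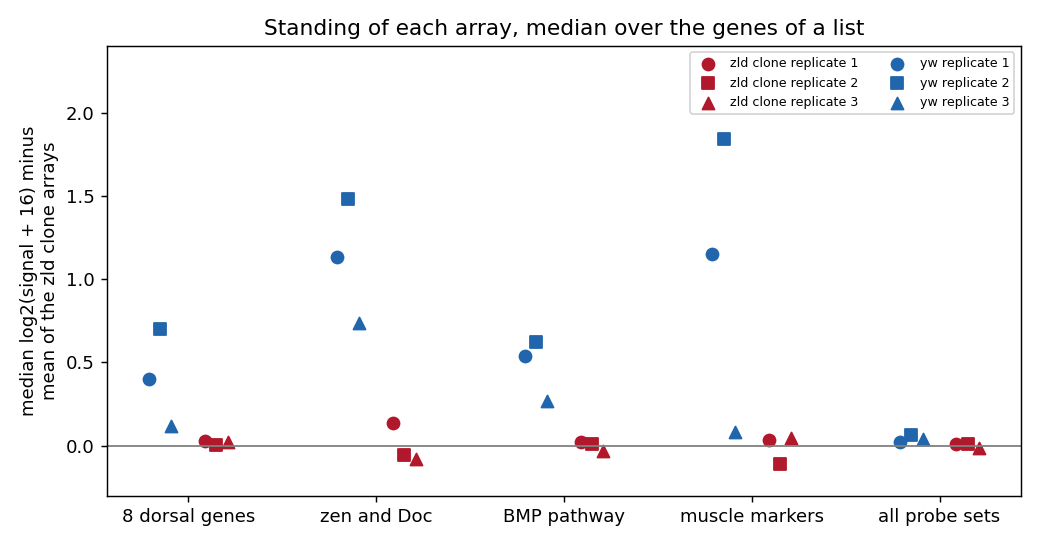
Median over the genes of a list of log2(signal + 16) minus its mean over the zld germ-line clone arrays, for each yw array (blue) and each zld germ-line clone array (red), with the symbol giving the replicate. For the 8 dorsal genes and the muscle markers yw replicate 3 lies near 0 at 0.12 and 0.08, while for zen and Doc it lies at 0.74.

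The summed signal of the 6 muscle markers ran from 49.9 to 69.5 on the zld clone arrays and was 287, 458 and 74.0 on yw replicates 1, 2 and 3. None of the 6 was called (limma). Before adjustment 5 passed as lower and 0 as higher, beside 8.67% and 6.69% of all probe sets. Without yw replicate 3, Mlc1, up and Mp20 were called lower, 3 of the 6, beside 1.13% of all probe sets. Mlc1, a myosin light chain gene, had 121.9, 149.3 and 34.1 on yw replicates 1, 2 and 3 and 22.7, 17.6 and 23.9 on the zld clone arrays. The same order of the yw arrays, replicate 2 over replicate 1 over replicate 3, was found for 6 of the 8 genes, namely pnr, ush, Ance, peb, srp and egr, and for 16.8% of all probe sets. It was also found for 7 of the 7 other dorsal ectoderm and amnioserosa genes, 6 of the 6 muscle markers, 5 of the 15 BMP pathway genes and 1 of the 5 zen and Doc genes. Replicate 2 of yw was the highest of all arrays for 7 of those 7, 6 of those 6, 8 of those 15 and 5 of those 5. The remaining marker lists shared the order of the yw arrays less often. It held for 5 of 10 hemocyte, 1 of 4 neuron, 0 of 2 heart and midgut and 1 of 2 trachea markers. Hemocyte markers, which bear on srp and ush, were summed at 411 to 447 on the zld clone arrays and 387 to 585 on the yw arrays. The scavenger receptor gene crq made up 79.6% to 84.2% of the zld clone sums, with 332, 377 and 334 on zld clone replicates 1, 2 and 3 and 171, 239 and 277 on yw replicates 1, 2 and 3. Without crq, which was set apart after its values were seen, the other 9 markers summed to 78.5, 70.5 and 85.3 on the zld clone arrays and 240, 346 and 111 on yw replicates 1, 2 and 3, so these sums were lower on every zld clone array and crq lay higher there. The matrix genes Col4a1, Ppn and vkg had the highest yw means of these 9, at 63.2, 58.9 and 50.1, and gcm followed at 22.5. These sums thus mostly reflect matrix genes. Of the 10 hemocyte markers 0 were called (limma), with a list median of -0.30. Before adjustment 4 passed as lower and 1 as higher, beside 8.67% and 6.69% of all probe sets. Without yw replicate 3, 2 of the 10 were called lower, vkg and Col4a1, and with each array centred on its median crq was called higher (log2 fold change 0.75, adjusted p = 0.0361, limma). The largest difference was that of the matrix gene vkg, at 56.2, 83.4 and 10.6 on yw replicates 1, 2 and 3 and 7.4, 6.6 and 6.7 on the zld clone arrays. Hml, Pxn, gcm2 and eater were within background on all arrays. NimC1 passed it narrowly on zld clone replicate 1 (18.3) and on yw replicates 1 and 3 (20.2 and 19.9). For gcm, yw replicates 1 and 2 passed it (23.3 and 33.8). Markers of neurons, of heart and midgut and of trachea, with 4, 2 and 2 measured genes, had 0 calls, and 0 also before adjustment (limma). Their list medians were -0.07, -0.07 and -0.28, and their furthest genes were Sytalpha at -0.22 (adjusted p = 0.591), bin at -0.29 (adjusted p = 0.616) and vvl at -0.45 (adjusted p = 0.371). Over the marker lists no signal was listed at 0. The part of cells expressing these markers in the values of the 8 genes was not tested. The labels give the same age range for all 6 samples. Whether the yw collections 1 and 2 held some older embryos was not tested, and such an age difference and the effect of the zld clone cannot be told apart on those arrays.

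Without yw replicates 1 and 2 together, the median log2 fold change of the 8 genes was -0.12, against -0.04 over all probe sets. The log2 fold change of Ance was then -0.68, given with no p since the yw group is a single array, with the remaining yw array, at 44.1, still over every zld clone array.

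The profile of Ance across the 6 arrays was set against those of 7302 other genes whose mean signal over all 6 arrays exceeded background, by the root mean square difference of centred log2(signal + 16) values. The rule for naming such genes covered called members only, so the ones given here were chosen after their values were seen, and the likeness is a description. Nearest to Ance were upd1, a JAK-STAT ligand gene, with a difference of 0.0444, and CG14427 with 0.117, both over background on every array. The signals of upd1 were 45.8, 51.9 and 48.1 on zld clone replicates 1, 2 and 3 and 101.5, 168.6 and 91.4 on yw replicates 1, 2 and 3. CG14427 had a log2 fold change of -1.06 and was called (adjusted p = 0.0446, limma), so that a gene with a difference close to that of Ance lay on the other side of the threshold. Like Ance, upd1 was not called (log2 fold change -1.04, adjusted p = 0.0598, limma). Nor was hll, the next nearest with a profile difference of 0.122 (log2 fold change -0.93, adjusted p = 0.136, limma).

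**Figure D4:**
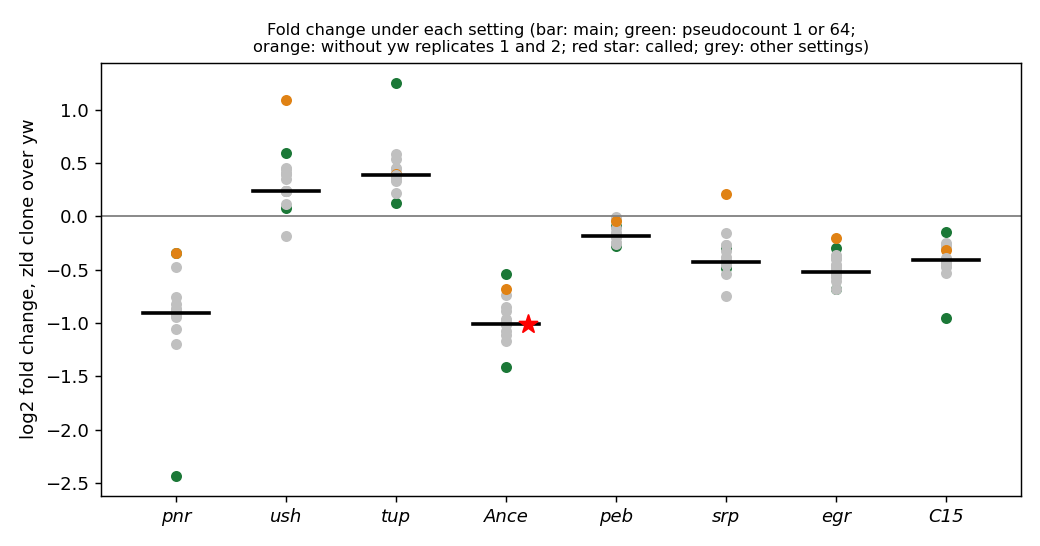
Log2 fold change of zld germ-line clone over yw embryos for each of the 8 genes under the main setting (bar) and each alternative (points), with pseudocounts in green, the setting without yw replicates 1 and 2 in orange and a call as a red star. Ance with dim probe sets left out is the sole call, pnr spreads from -2.43 to -0.34, and ush and srp have points on both sides of 0.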

How the data were processed

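The authors deposited 1 signal intensity per probe set and array on a linear scale, processed and normalized with the GeneChip Operating Software per the labels' series text; the sources used here do not name its version. From the values, the 2% trimmed mean was 150.0 on all 6 arrays, so the deposited signals carry a global scaling. There were no detection calls. Of 18952 probe sets, 183 controls were left out. Symbols came from the platform annotation, updated to RefSeq Release 6: 13647 probe sets had 1 gene, 402 several and 4720 none. The brightest probe set stood for a gene. The test was limma 3.58.1 (R 4.3.3; lmFit, eBayes with trend) on log2(signal + 16) with a single group term over the 6 arrays, adjusted by Benjamini-Hochberg over 18769 probe sets, checked on simulated data. In the simulation 54% of 2-fold and 95% of 4-fold falls were recovered. These falls were placed only in probe sets above the median yw signal, so dimmer probe sets were not covered. The 3 arrays per group limit the precision. The sample protocols speak of duplicate collections and the series text of 3 replicate ones, so p-values may cover technical spread only. Deviations of same-numbered arrays correlated at 0.147, -0.0015 and -0.035, so numbers were not taken as pairs.

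Named genes were all 8 members, zld, and for each of 13 context lists (90 genes, 78 measured) up to 3 called genes and the furthest uncalled one; other names were chosen after their values were seen. Members, lists and tests were chosen with earlier results of these data known. The alternatives were pseudocounts of 1 and 64, a filter on dim probe sets, quantile normalization, median centring, no trend, the methods' t-test, a replicate block, array weights, other probe set choices and arrays left out. Figures used Python 3.11.15, pandas 2.3.3 and matplotlib 3.10.9. No sequences were used here.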

Additional observations from a re-analysis of the deposited data

How the results depend on the processing

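No member was called under any of the 18 alternatives except Ance with dim probe sets left out, where 1 member was called lower, with 264 lower and 327 higher probe sets and 5 zen and Doc genes lower; fewer probe sets were tested there, and pnr, tup and C15 were not among them. Signs of the members were kept under every alternative run, except for ush at -0.19 without yw replicate 3 (-0.19 to 0.45 with 1 array left out) and srp at 0.21 without yw replicates 1 and 2. That last setting, with a single yw array, gave a member median of -0.12, 43 lower and 51 higher probe sets, 3 BMP genes and 0 zen and Doc genes lower. Leaving out 1 array at a time gave member medians of -0.57 to -0.23, 0 called members, 45 to 213 lower and 35 to 227 higher probe sets, 2 to 5 BMP genes and 1 to 3 zen and Doc genes lower. Median centring moved the median of all probe sets by 0.157 and gave 127 lower and 552 higher probe sets, against 146 and 162. The methods' t-test called 0 lower and 2 higher probe sets, 0 BMP genes and 0 zen and Doc genes. The replicate block gave 76 lower and 75 higher probe sets and 0 members; numbers were not shown to pair arrays. Leaving out suffixed probe sets gave 3 lower BMP genes of 12, and no Ance value. The causes of these shifts were not tested. Signals under background give no level for tup and, in zld clone embryos, for pnr, C15, scw, dpp, tsg and tld.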
